A study of Mus musculus with 6 samples.

Results

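The cadherin superfamily and the proteins that anchor it in the cell were followed here in osteoblasts that had lost the Tet genes. Members were taken from the count table by gene symbol: cadherins with a number (Cdh), protocadherins (Pcdh), desmocollins, desmogleins, plakophilins with a number, alpha-, beta- and delta-catenins, Fat1 to Fat4, Dchs1, Dchs2, Dsp and Jup. The rule used no measured value. It found 95 of the 16455 genes listed: 13 classical cadherins, 3 other cadherins, 55 entries of the clustered protocadherins, 8 delta protocadherins, 1 other protocadherin outside the clusters, 4 Fat and Dachsous genes, 5 catenins and 6 desmosome genes.

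RNA-seq was performed on primary osteoblasts from the skull vault of TCKO and WT mice, with 3 libraries per genotype. TCKO animals were fl/fl at each of Tet1, Tet2 and Tet3 and carried the Prx1-Cre driver, which is active in the mesenchyme of the limbs and part of the skull, so cells of other origin in the cultures kept their Tet genes. WT animals are labelled only as WT. Both genotypes are given as strain C57/B6 and an age of 3 days, and the cells of both were grown in culture for 3 days. The labels name no separate animal, litter or culture for a library, so p-values rest on the variation among these libraries alone, part or all of which could be technical.

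Cadherins are calcium-dependent adhesion receptors that bind the same or a related cadherin on the neighbouring cell. Classical cadherins hold beta-catenin or plakoglobin (Jup) and p120-catenin (Ctnnd1) on their cytoplasmic tail, and alpha-catenin (Ctnna1) links them to actin. In desmosomes, desmogleins and desmocollins bind plakoglobin and plakophilins, which join them through desmoplakin (Dsp) to intermediate filaments. Osteoblasts are known for the pair Cdh11 (OB-cadherin) and Cdh2 (N-cadherin). Protocadherins lack the catenin-binding tail and are best known from neurons, and the giant Fat and Dachsous cadherins act in tissue polarity and growth.

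The libraries held 8119261 to 10657824 reads, of which members took 0.454% to 0.595%. Replicates 1 and 2 of each genotype were close to each other, with a chi-square of their counts of 2.41 per degree of freedom in TCKO and 1.69 in WT, and replicate 3 differed from both by 20.9 and 21.2 in TCKO and by 14.6 and 15.4 in WT. They differed by more than sampling noise and were kept as separate samples, but results are also given with replicates 1 and 2 summed. Levels are given in CPM, counts per 1000000 reads after TMM scaling of the library sizes. Reads over the whole Tet genes do not measure a deleted exon: Tet1 lay between 3.99 and 6.53 CPM in TCKO and between 8.86 and 11 CPM in WT (adjusted p = 0.0207, edgeR), Tet2 between 9.83 and 14.2 CPM in TCKO and between 13.6 and 15.3 CPM in WT (0.244), and Tet3, which was higher in TCKO, between 57.5 and 66.4 CPM in TCKO and between 41.6 and 46.3 CPM in WT (0.00803). Of 8 osteoblast markers listed, Col1a1, Col1a2 and Sparc were among the abundant genes, with Col1a1 at a mean of 11430 CPM in TCKO and 17770 CPM in WT, and Runx2 averaged 52.2 CPM in TCKO and 68.6 CPM in WT. The 8 summed to 21720 to 38040 CPM in TCKO and 41510 to 44660 CPM in WT, with 4 called lower, among them Alpl (3.6 CPM in TCKO, 33.7 CPM in WT), and 1 called higher, Spp1 (8195 CPM in TCKO, 1272 CPM in WT). The 6 chondrocyte markers summed to 983 to 1393 CPM in TCKO and 8048 to 9822 CPM in WT. The 8 macrophage markers summed to 163 to 553 CPM in TCKO and 427 to 758 CPM in WT. The 4 neuron markers listed summed to 107 to 124 CPM in TCKO and 66.4 to 74.7 CPM in WT, with Stmn2 at a mean of 38.9 CPM in TCKO and 10.4 CPM in WT. The 7 endothelial markers listed summed to 10.8 to 11.5 CPM in TCKO and 12 to 13 CPM in WT, with Pecam1, Tek and Emcn under 1 CPM on average, Esam called higher (2.76 CPM in TCKO, 0.503 CPM in WT) and Erg called lower (0.562 CPM in TCKO, 4.38 CPM in WT). The epithelial keratins Krt8 and Krt18 averaged under 1 CPM in both genotypes. The part of these cell types in the results below was not tested, and in bulk RNA fewer cells of a type and less RNA per cell cannot be told apart.

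At any fold, members were called as differing between the genotypes about as often as all genes tested, and more of those called were higher than lower in TCKO. Of the 95 members, 71 had enough reads to be tested in the fit across all 13630 genes. At an adjusted p under 0.05 (edgeR quasi-likelihood test, Benjamini-Hochberg over all genes tested), 10 members were higher in TCKO and 3 were lower, 13 or 18.3% of the 71. Over all genes tested the share was 18.3%, with 9.44% higher and 8.9% lower. With a fold above 2 as well, 6 members were higher (Pcdh17, Pkp2, Cdh18, Ctnnd2, Pcdh19, Cdh2) and 2 were lower (Fat3, Fat4), which is 11.3% of the members tested beside 6.07% of all genes, of which 3.01% were higher and 3.06% lower. The median log2 difference was 0.19 over the members tested and 0.00 over all genes. A gene such as Pcdh17 passed the filter on low counts through its TCKO level alone, so these shares describe the members and do not test them as a list.

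**Figure D1:**
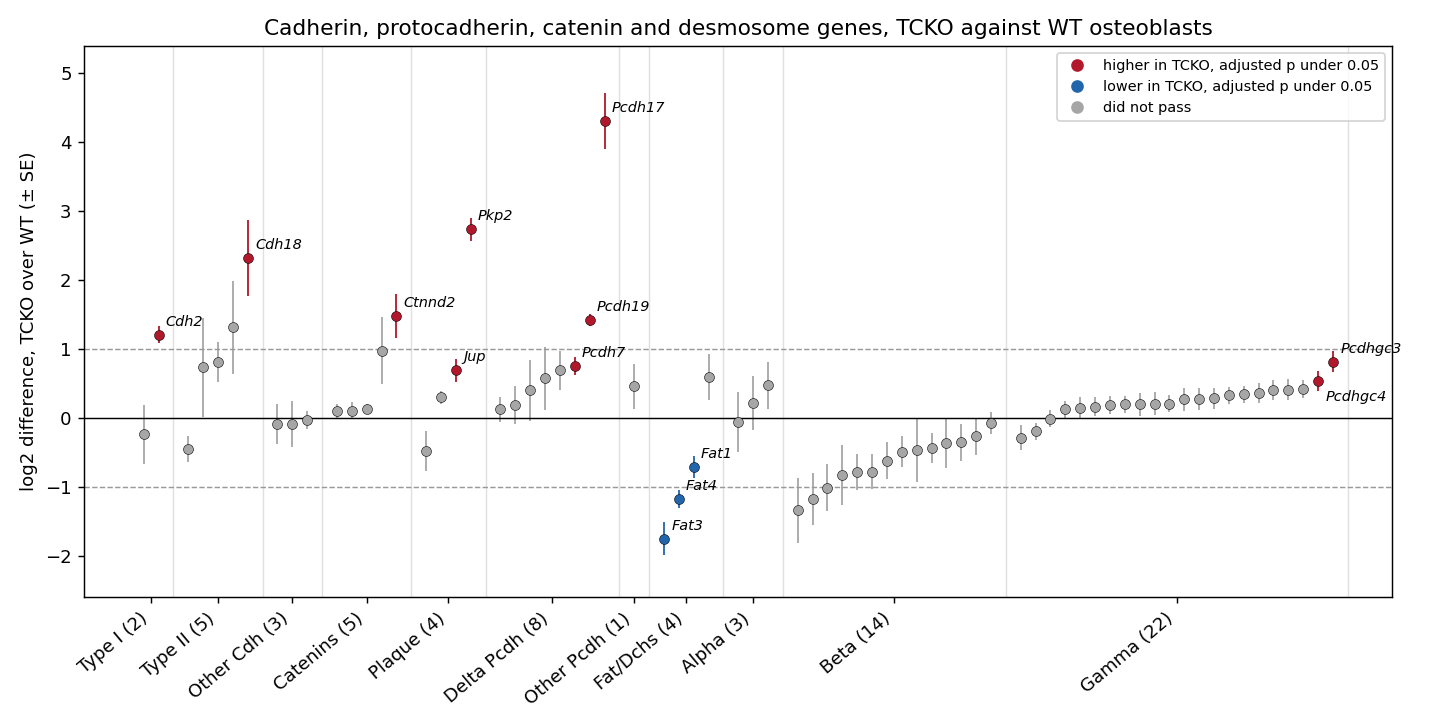
Log2 difference, TCKO over WT, of the 71 members tested, by family, with the standard error as a bar and the number tested in brackets. Red points are higher and blue points lower in TCKO at an adjusted p under 0.05, and grey points did not pass. Dashed lines mark a fold of 2, which 6 called members exceeded upwards and 2 downwards, none of them in the protocadherin clusters.

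Most calls, 11 of 13, were of members outside the protocadherin clusters. Of the 40 members outside the clusters, 32 were tested, 8 rose and 3 fell (34.4% called). Of the 55 cluster entries 39 were tested and 2 rose, Pcdhgc3 and Pcdhgc4 (5.13% called). Over all genes tested the share was 18.3%. The difference between the 2 shares of members was not tested, and the cluster entries are not independent of each other. All 13 called members had no overlap between the 3 TCKO and the 3 WT libraries, as had 31 of the 71 tested (43.7%) and 38.2% of all genes tested. That lack of overlap fixes the same direction in replicates 1 and 2 as in replicate 3 for all 13. With replicates 1 and 2 summed, which leaves 2 libraries a genotype, 353 genes (2.44%) passed, 5 of them members: Pcdh17, Pkp2, Pcdh19 and Cdh2 higher and Fat4 lower. With the replicate number as a block, 24.6% of all genes passed and the members called were 21, 15 higher and 6 lower. Without WT replicate 2, 8 members passed. Without WT replicate 3 the balance changed, with 9 members higher and 7 lower at any fold and 4 higher and 4 lower at a fold above 2: Cdh18 and Ctnnd2 missed the threshold, Pkp4 passed as higher, and Pcdhb11, Pcdhb14, Pcdhb16 and Pcdhb22 passed as lower.

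The promoters of the members past both thresholds are shown because the TET enzymes act on methylated cytosine, which in mammalian DNA mostly stands before guanine. RefSeq (GRCm38.p6) gave a window of 300 bases, 250 before and 50 after the start of an annotated transcript, for 6 of the 8. That start is the first base of the gene's span for Pcdh17 and Ctnnd2, and lies 51 bases inside it for Pcdh19, 627 for Fat3, 2273 for Fat4 and 487565 for Cdh18. Capitals mark each CG.
Pcdh17 (chr14:84443313-84443612, plus strand): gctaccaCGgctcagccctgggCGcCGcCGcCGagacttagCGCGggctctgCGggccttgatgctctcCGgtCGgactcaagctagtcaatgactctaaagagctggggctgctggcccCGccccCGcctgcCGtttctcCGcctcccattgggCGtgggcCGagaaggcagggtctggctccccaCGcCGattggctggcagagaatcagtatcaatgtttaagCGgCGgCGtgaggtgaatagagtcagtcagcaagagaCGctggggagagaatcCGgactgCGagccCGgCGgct
Cdh18 (chr15:23036213-23036512, plus strand): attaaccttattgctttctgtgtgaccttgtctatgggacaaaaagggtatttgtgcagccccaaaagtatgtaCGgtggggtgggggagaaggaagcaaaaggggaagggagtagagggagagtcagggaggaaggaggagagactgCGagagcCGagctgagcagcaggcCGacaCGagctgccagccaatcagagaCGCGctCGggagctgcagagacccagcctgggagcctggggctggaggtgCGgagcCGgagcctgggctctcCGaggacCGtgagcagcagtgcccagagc
Ctnnd2 (chr15:30172284-30172583, plus strand): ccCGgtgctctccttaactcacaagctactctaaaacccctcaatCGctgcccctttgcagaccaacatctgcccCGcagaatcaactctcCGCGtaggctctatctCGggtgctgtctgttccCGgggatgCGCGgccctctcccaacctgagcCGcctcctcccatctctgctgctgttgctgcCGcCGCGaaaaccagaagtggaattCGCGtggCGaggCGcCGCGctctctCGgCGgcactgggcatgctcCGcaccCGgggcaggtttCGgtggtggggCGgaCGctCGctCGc
Pcdh19 (chrX:133688944-133689243, minus strand): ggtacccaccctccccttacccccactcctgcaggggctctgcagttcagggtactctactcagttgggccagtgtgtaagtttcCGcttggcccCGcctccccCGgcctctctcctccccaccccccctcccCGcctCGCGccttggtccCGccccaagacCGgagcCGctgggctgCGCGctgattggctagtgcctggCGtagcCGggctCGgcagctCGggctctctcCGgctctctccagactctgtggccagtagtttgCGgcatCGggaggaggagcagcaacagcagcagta
Fat3 (chr9:16502005-16502304, minus strand): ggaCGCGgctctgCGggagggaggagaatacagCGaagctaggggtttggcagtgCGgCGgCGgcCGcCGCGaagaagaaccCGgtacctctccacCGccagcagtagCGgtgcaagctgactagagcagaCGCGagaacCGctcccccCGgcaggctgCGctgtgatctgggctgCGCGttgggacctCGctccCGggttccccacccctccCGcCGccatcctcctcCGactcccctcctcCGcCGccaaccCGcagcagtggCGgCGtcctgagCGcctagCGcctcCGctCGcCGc
Fat4 (chr3:38886690-38886989, plus strand): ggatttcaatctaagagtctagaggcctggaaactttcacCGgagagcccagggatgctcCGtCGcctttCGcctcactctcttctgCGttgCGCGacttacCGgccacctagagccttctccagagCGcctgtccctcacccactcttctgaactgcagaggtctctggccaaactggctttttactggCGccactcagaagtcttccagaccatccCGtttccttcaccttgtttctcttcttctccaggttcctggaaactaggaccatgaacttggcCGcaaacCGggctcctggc

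The 6 windows held between 12 and 35 CG, where the median over 32851 windows of the same length was 7. Pcdh17 had 26, a count that 16.9% of all windows reach, and Pcdh19 had 18, which 29.7% reach. Fat3, a gene that fell, had the most with 35 (6.95%), followed by Ctnnd2 with 28 (14.2%), and Fat4 with 13 (37.9%) and Cdh18 with 12 (39.6%) had the fewest. Members that rose and members that fell were thus found at both ends. None of the 6 held the core RUNX letters TGTGGT on either strand, which 16.8% of all windows hold. Methylation of these windows was not measured in the table used here.

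Among the classical cadherins, Cdh2 rose. N-cadherin Cdh2 (chr18:16588877-16809246, GRCm38), the main cadherin of mesenchymal and neural cells, had 302, 286 and 352 CPM in the 3 TCKO libraries, against 146, 146 and 115 CPM in WT. The lowest TCKO library stood well above the highest WT library. It was 2.31-fold higher in TCKO (log2 1.21 ± 0.12 SE, edgeR adjusted p = 0.000601), and it stayed past the threshold with each library left out (adjusted p up to 0.00475) and with replicates 1 and 2 summed (0.0284).

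Cdh11 (chr8:102632095-102785493), the cadherin first described in osteoblasts, was the most abundant cadherin per kb of exon in both genotypes. It had 753, 745 and 498 CPM in TCKO libraries, against 993, 1007 and 731 CPM in WT libraries. TCKO replicates 1 and 2 lay just above WT replicate 3, so the groups overlapped, and each TCKO library was below the WT library of its own number. The log2 difference was -0.45 ± 0.19 (SE), and the adjusted p was 0.147 without and 0.0048 with the replicate block. Per kb of exon, Cdh2 stood at 0.443, 0.423 and 0.781 of the Cdh11 level in TCKO, against 0.162, 0.16 and 0.173 in WT. The balance of the 2 main cadherins of the cultures thus differed between the genotypes in every library, and Cdh11 remained above Cdh2 in each.

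The type II cadherin Cdh18, known from the brain, was low and rose. It had 7.09, 6.02 and 21.7 CPM in TCKO (64, 49 and 196 reads), against 2.19, 2.37 and 2.4 CPM in WT. The WT libraries lay close together, and TCKO replicate 3 was far above the other 2. The log2 difference was 2.32 ± 0.55 (SE, adjusted p = 0.0302 in edgeR). It missed the threshold without WT replicate 1, 2 or 3 (0.113, 0.116 and 0.0964) and in limma-voom (0.0606), and the log2 difference was 1.52 in replicates 1 and 2 and 3.18 in replicate 3.

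The remaining 5 tested classical cadherins did not pass. Cdh10, a type II cadherin of the nervous system, had 9.86, 9.46 and 2.44 CPM in TCKO and 5.07, 2.66 and 0.959 CPM in WT, higher in TCKO within each replicate number. Its adjusted p was 0.232 without and 0.00711 with the replicate block. Cdh24 averaged 5.53 ± 1.84 CPM in TCKO and 3.17 ± 0.63 CPM in WT (SD, n = 3 each, edgeR adjusted p = 0.0905), without overlap. Cdh6, which marks early kidney and neural crest, had 31.2 CPM in TCKO replicate 3 and 8.19 and 4.79 CPM in the other TCKO libraries, beside 7.25 to 12.2 CPM in WT (adjusted p = 0.535). P-cadherin Cdh3 had 15.5, 15.5 and 4.98 CPM in TCKO and 17.0, 15.3 and 9.95 CPM in WT (adjusted p = 0.742). For Cdh3, Cdh6 and Cdh10 the step between replicate 3 and the other libraries was larger than that between genotypes.

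Cdh6, Cdh10, Cdh18 and the catenin Ctnnd2 lie in 1 stretch of chromosome 15, from 13028699 to 31029344. All 4 had a positive log2 difference over the 6 libraries, and 2 of them passed, Cdh18 and Ctnnd2. For Cdh6 it was -0.17 in replicates 1 and 2 and 1.35 in replicate 3. The calls of Cdh18 and Ctnnd2 were each lost without WT replicate 1, 2 or 3. The same stretch held 10 other tested genes, of which 2 rose and 3 fell.

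The 3 other cadherins did not differ beyond their spread. Cdh13 (T-cadherin, held by a lipid anchor), Cdh17 and Cdh23 (a tip-link cadherin of inner ear hair cells) had log2 differences between -0.10 and -0.03. Cdh23 was the highest of them, with 27.8 ± 3.4 CPM in TCKO and 28.3 ± 3.4 CPM in WT (SD, n = 3 each).

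**Figure D2:**
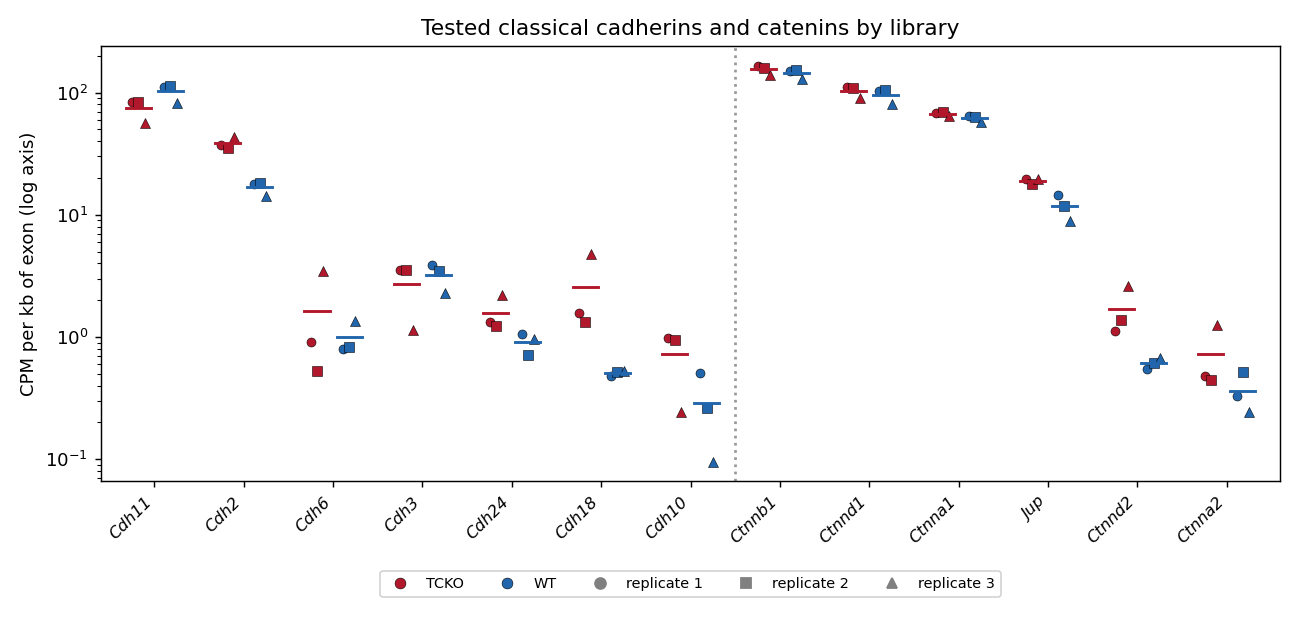
CPM per kb of exon (log axis) in each library of the 7 tested classical cadherins (left of the dotted line) and of 6 catenins including Jup, with TCKO in red and WT in blue, a symbol per replicate and the mean as a bar. Cdh11 and the catenins Ctnnb1, Ctnnd1 and Ctnna1 lead in both genotypes, and Cdh2 is higher in every TCKO library than in any WT library.

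The catenins of the adherens junction were among the most abundant members and differed little. Per kb of exon, mean levels over the 6 libraries were highest for Ctnnb1, Ctnnd1, Cdh11, Ctnna1, Fat1 and Pcdhgc3, in that order. The order differed between genotypes: Cdh11 stood below Ctnnd1 in TCKO (74.7 and 104 CPM per kb) and above it in WT (102 and 96.3), and Fat1 stood below Ctnna1 in TCKO (45.6 and 67.3) and above it in WT (74.9 and 61.7). Beta-catenin Ctnnb1, which also carries the Wnt signal, had 862, 827 and 720 CPM in TCKO and 784, 793 and 670 CPM in WT. The 2 ranges overlapped (log2 difference 0.10 ± 0.10 SE, adjusted p = 0.536). P120-catenin Ctnnd1, which keeps cadherins at the surface, had 821, 797 and 658 CPM in TCKO and 753, 768 and 594 CPM in WT (adjusted p = 0.609). Alpha-catenin Ctnna1 had 438, 443 and 416 CPM in TCKO and 411, 409 and 369 CPM in WT. Its libraries did not overlap, yet the log2 difference was only 0.13 ± 0.07 (SE, adjusted p = 0.282). In each of the 3 genes replicate 3 was the lowest library of its genotype.

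The exception was Ctnnd2 (chr15:30172534-31029344), a delta-catenin of the p120 family known from neurons. It had 11.6, 14.3 and 26.8 CPM in TCKO, against 5.64, 6.27 and 6.95 CPM in WT. Each TCKO library was above the highest WT library, with replicate 3 the highest in both genotypes. It was 2.79-fold higher (log2 1.48 ± 0.32 SE, adjusted p = 0.019). The call was lost without WT replicate 1, 2 or 3 (adjusted p = 0.0817, 0.0793 and 0.051). Ctnna2, the neural alpha-catenin, had 3.32, 3.07 and 8.75 CPM in TCKO and 2.3, 3.61 and 1.68 CPM in WT, and did not pass (adjusted p = 0.206).

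In the desmosome group, Pkp2 rose most. Plakophilin 2 (Pkp2, chr16:16213345-16272712), an armadillo protein of the desmosomal plaque, had 30.4, 27.8 and 26.7 CPM in TCKO, against 3.91, 3.51 and 5.39 CPM in WT. The 3 TCKO libraries were close together and none came near a WT library. It was 6.66-fold higher (log2 2.74 ± 0.17 SE, adjusted p = 9.1e-05), and the adjusted p was at most 0.00135 with a library left out and 0.0148 with replicates 1 and 2 summed. Plakoglobin Jup (chr11:100368856-100397839), shared by desmosomes and adherens junctions, had 126, 115 and 126 CPM in TCKO, against 94.2, 75.8 and 57.3 CPM in WT. It was 1.61-fold higher (log2 0.69 ± 0.16 SE, adjusted p = 0.0263), and the call was lost without TCKO replicate 1, 2 or 3 or WT replicate 2 (adjusted p = 0.0862, 0.0626, 0.0531 and 0.099).

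Of the other desmosome genes, Dsp and Dsc2 were scarce. Desmoplakin Dsp, the link to intermediate filaments, had 15 reads in the 3 TCKO libraries together (0, 0.737 and 0.997 CPM) and 4 reads in WT (0.115, 0.19 and 0.12 CPM). Desmocollin 2 (Dsc2), the only desmosomal cadherin listed, had 17 reads in TCKO (0.886, 0.369 and 0.664 CPM) and 2 in WT (0.115, 0 and 0.12 CPM). Both were below the filter on low counts. Without that filter Dsc2 passed as higher (adjusted p = 0.0495) and Dsp did not (0.265), and no fold is given on so few WT reads. Pkp1, a plakophilin of skin, averaged 4.46 ± 1.41 CPM in TCKO and 6.22 ± 1.62 CPM in WT (SD, n = 3 each, edgeR adjusted p = 0.29). Pkp4, a p120 relative found at adherens junctions, had 41.7, 37.2 and 39.6 CPM in TCKO and 31.6, 29.6 and 35.5 CPM in WT. Its libraries did not overlap, and the adjusted p was 0.0705 without and 0.0436 with the replicate block. The rise of Pkp2 was therefore measured in cultures with few reads of desmoplakin, desmocollin 2 and the keratins Krt8 and Krt18, and with abundant vimentin (Vim, 3877 CPM in TCKO and 3390 CPM in WT). Perp, from the list of desmosome and intermediate filament genes below, averaged 29.6 CPM in TCKO and 33.4 CPM in WT (edgeR adjusted p = 0.822). The 4 epithelial markers listed summed to 11.6 to 25.0 CPM in TCKO and 8.35 to 9.32 CPM in WT, most of it Krt19 (15.3 CPM in TCKO and 5.42 CPM in WT, adjusted p = 0.0533, and 0.00101 with the replicate block). Trp63, the other one tested, was lower (0.111 CPM in TCKO and 3.43 CPM in WT, adjusted p = 0.0104).

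**Figure D3:**
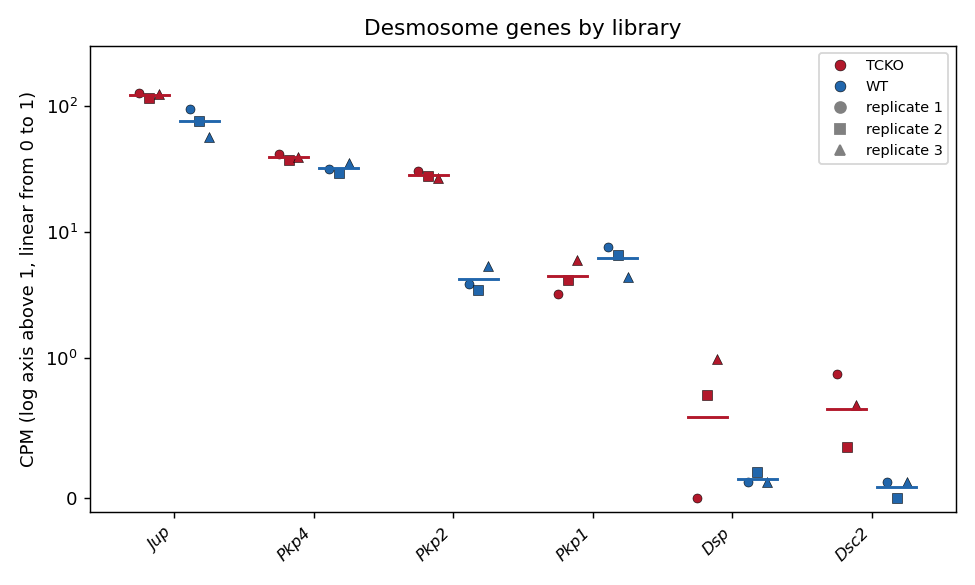
CPM of the 6 desmosome genes in each library (log axis above 1 CPM, linear below), with TCKO in red left of WT in blue, a symbol per replicate and the mean as a bar. Pkp2 lies between 26.7 and 30.4 CPM in TCKO and between 3.51 and 5.39 CPM in WT, while Dsp and Dsc2 stay under 1 CPM in every library.

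Of the 8 delta protocadherins, all tested, 3 rose and none fell. That is 37.5% called, on 8 genes, beside 18.3% of all genes tested, and the difference was not tested. All 8 had a positive log2 difference, with a median of 0.63, while 6797 of the 13630 genes tested had one and the median of all genes was 0.00. For 4 of them the sign depended on the libraries: in replicates 1 and 2 the log2 difference was -0.28 for Pcdh1, -0.30 for Pcdh10 and -0.18 for Pcdh9, and in replicate 3 it was -0.23 for Pcdh11x. Protocadherin 17 (Pcdh17, chr14:84443563-84537565), which in neurons brings the actin regulator WAVE to cell contacts, had 55, 44 and 60 reads in TCKO (6.09, 5.41 and 6.64 CPM), against 5, 2 and 1 reads in WT (0.575, 0.19 and 0.12 CPM). It was thus nearly unread in WT and low but regular in TCKO. The difference, 19.9-fold (log2 4.31 ± 0.41 SE, adjusted p = 0.000459), rests on 8 WT reads in all. It was past the threshold with each library left out (up to 0.00526) and with replicates 1 and 2 summed (0.0199).

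Pcdh19 (chrX:133582860-133689044), a delta protocadherin that can associate with N-cadherin, was among the more abundant members and rose. It had 300.2, 253 and 290 CPM in TCKO, against 109, 109 and 96.0 CPM in WT. The groups lay far apart compared with their spread. It was 2.68-fold higher (log2 1.42 ± 0.09 SE, adjusted p = 9.2e-05), and its largest adjusted p was 0.00155 with a library left out and 0.0141 with replicates 1 and 2 summed. Pcdh7 (chr5:57716145-58133236), a delta protocadherin also found outside the nervous system, had 185, 181 and 217 CPM in TCKO, against 127, 127 and 93.2 CPM in WT. It was 1.68-fold higher (log2 0.75 ± 0.13 SE, adjusted p = 0.00781) and passed with each library left out.

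Pcdh18 was abundant and did not pass. It had 125, 113 and 168 CPM in TCKO and 101, 99.3 and 51.2 CPM in WT, without overlap, and the gap between genotypes was 0.25 on the log2 scale in replicates 1 and 2 and 1.71 in replicate 3. Its adjusted p was 0.158 in edgeR and 0.0295 in DESeq2. Pcdh1, Pcdh9, Pcdh10 and Pcdh11x had adjusted p between 0.431 and 0.687. Pcdh10 had 19.6 CPM in TCKO replicate 3 and 5.39 to 9.21 CPM in the other 5 libraries. Pcdh20, outside the delta group here, averaged 8.8 ± 4.1 CPM in TCKO and 6.45 ± 1.51 CPM in WT (SD, n = 3 each, edgeR adjusted p = 0.384).

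**Figure D4:**
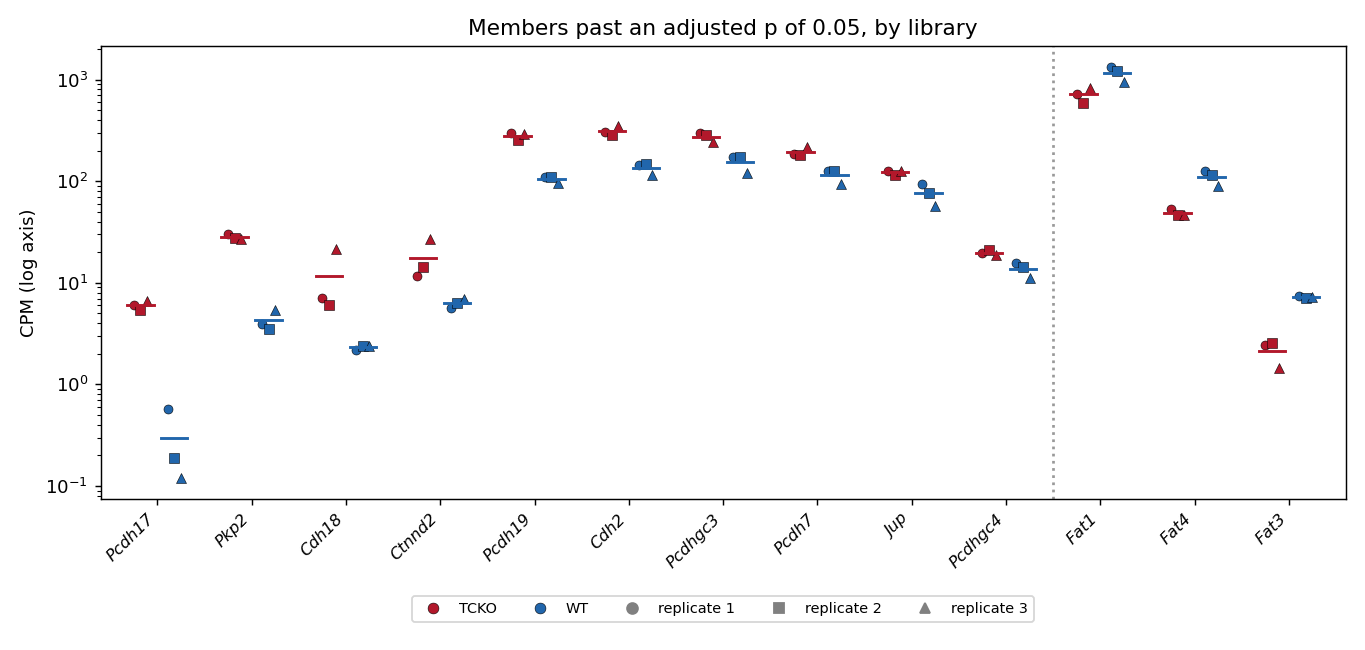
CPM (log axis) in each library of the 13 members past an adjusted p of 0.05, with TCKO in red left of WT in blue, a symbol per replicate and the mean as a bar. The 10 genes left of the dotted line are higher and the 3 right of it lower in TCKO, with no overlap between genotypes in any of them.

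Of the 4 Fat and Dachsous genes, 3 were called, all lower in TCKO. That is 75%, on 4 genes, beside 18.3% of all genes called and 8.9% called lower. The 3 were Fat1, Fat3 and Fat4, and the Dachsous gene Dchs1 did not pass. Only Fat4 passed both with each library left out and with replicates 1 and 2 summed. Fat4 (chr3:38884667-39011992), the receptor partner of Dchs1, had 52.7, 46.6 and 46.2 CPM in TCKO, against 126, 114 and 89.8 CPM in WT. It was 2.27-fold lower (log2 -1.18 ± 0.13 SE, adjusted p = 0.00096) and passed with each library left out (up to 0.00804) and with replicates 1 and 2 summed (0.0385).

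Fat3 (chr9:15910189-16502681), known from neurons of the retina, was far less abundant. It had 2.44, 2.58 and 1.44 CPM in TCKO (22, 21 and 13 reads), against 7.37, 7.12 and 7.31 CPM in WT. It was 3.37-fold lower (log2 -1.75 ± 0.24 SE, adjusted p = 0.00239), with an adjusted p of at most 0.0162 with a library left out and 0.0641 with replicates 1 and 2 summed. Fat1 (chr8:44933100-45052257), which acts on actin at the cell edge, was the most abundant of the family, with 715, 594 and 832 CPM in TCKO, against 1344, 1218 and 956 CPM in WT. It was 1.64-fold lower (log2 -0.72 ± 0.16 SE, adjusted p = 0.0204). The log2 difference was -0.97 in replicates 1 and 2 and -0.20 in replicate 3, and the call was lost without TCKO replicate 1 or 2 or WT replicate 1 or 2 (adjusted p = 0.0723, 0.064, 0.0755 and 0.0783). Dchs1, the ligand of Fat4, had 85.9, 76.3 and 50.3 CPM in TCKO and 58.2, 55.5 and 26.7 CPM in WT. The libraries overlapped, but Dchs1 was higher in TCKO within each replicate number, with an adjusted p of 0.282 without and 0.00365 with the block. Receptor and ligand thus had differences of opposite sign.

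The clustered protocadherins were read with care, because entries of the alpha and gamma clusters share their last exons, beta genes are related copies in 1 array, and the sources do not say how shared reads were counted. In the gamma cluster the lowest of 22 entries had 163 to 174 reads in TCKO and 93 to 149 reads in WT, and the second highest had 280 to 325 reads in TCKO and 236 to 396 reads in WT. In the alpha cluster, 8 of 14 entries were within 1 read of the lowest entry in all 6 libraries. The values of single entries are therefore uncertain and are not independent of each other.

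Pcdhgc3 stood apart from the other gamma entries. It had 295, 284 and 245 CPM in TCKO, against 174, 174 and 120 CPM in WT. These are 2661, 2308 and 2212 reads in TCKO and 1510, 1836 and 999 in WT, several times the reads of any other entry of the cluster. It was 1.76-fold higher (log2 0.81 ± 0.15 SE, adjusted p = 0.0109) and passed with each library left out (up to 0.0458). Less the lowest gamma entry of the same library, 2487, 2145 and 2045 reads were left in TCKO and 1373, 1687 and 906 in WT.

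Pcdhgc4 was called as well, at 1.45-fold higher (adjusted p = 0.0379). It had 519 reads in TCKO and 379 in WT. In TCKO it exceeded the lowest gamma entry by 5, 7 and 3 reads, and in each WT library it was itself the lowest. Its call therefore cannot be told apart from that of the shared reads. It was lost without TCKO replicate 1 or 2 or WT replicate 1 or 2 (adjusted p = 0.107, 0.124, 0.0516 and 0.112). With the replicate block, Pcdhga12 and Pcdhga2 also passed as higher (adjusted p = 0.0407 and 0.0228, against 0.0555 and 0.0987 without it) and Pcdhgc5 as lower (0.0464 against 0.306). Of the 22 gamma entries, 19 had a positive and 3 a negative log2 difference.

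Summed by cluster, gamma entries had a higher and beta entries a lower mean in TCKO, and only the beta sum passed. Shared reads may be counted in more than 1 entry, so the alpha and gamma sums may hold them repeatedly. The gamma sum was 845, 823 and 746 CPM in TCKO, against 688, 677 and 497 CPM in WT, a log2 ratio of the means of 0.38. Without Pcdhgc3 the sum was 551, 539 and 502 CPM in TCKO and 514, 502 and 377 CPM in WT, so that the groups overlapped. The beta sum was 51.9, 59.5 and 49.9 CPM in TCKO, against 81.3, 80.6 and 60.8 CPM in WT, with a log2 ratio of -0.46. WT replicate 3 lay just above the highest TCKO library. The alpha sum was 13.5, 12 and 11.5 CPM in TCKO and 12.8, 15.4 and 7.43 CPM in WT, and overlapped. In the fit that entered each cluster as 1 feature, the beta sum passed as lower in TCKO (log2 -0.47 ± 0.13 SE) and the gamma and alpha sums did not pass (0.38 ± 0.13 and 0.05 ± 0.25). That fit called 12 features in this gene set, 8 higher and 4 lower.

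No single beta gene passed, yet all 14 tested had a negative log2 difference, between -1.34 and -0.08 (median -0.56). For some the sign depended on the libraries: in replicate 3 it was 0.59 for Pcdhb2, 0.22 for Pcdhb22 and 0.06 for Pcdhb19. A gene such as Pcdhb11 (9, 6 and 8 reads in TCKO, 14, 29 and 13 in WT) passed the filter on low counts through its WT level alone. The count of signs thus describes these 14 and does not test them. Of the 5 beta entries below that filter, Pcdhb9 was positive without it (log2 0.36). Pcdhb4, Pcdhb8, Pcdhb12 and Pcdhb13 were negative, and none of the 5 was called. Without WT replicate 3, 4 of the 14 passed (Pcdhb11, Pcdhb14, Pcdhb16 and Pcdhb22). Pcdhb21 came to an adjusted p of 0.0781, and of 0.0482 with the replicate block, on 31 reads in TCKO and 66 in WT. Pcdhb17 and Pcdhb22, the 2 beta genes with the most reads, had log2 differences of -0.08 and -0.36 with overlapping libraries.

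**Figure D5:**
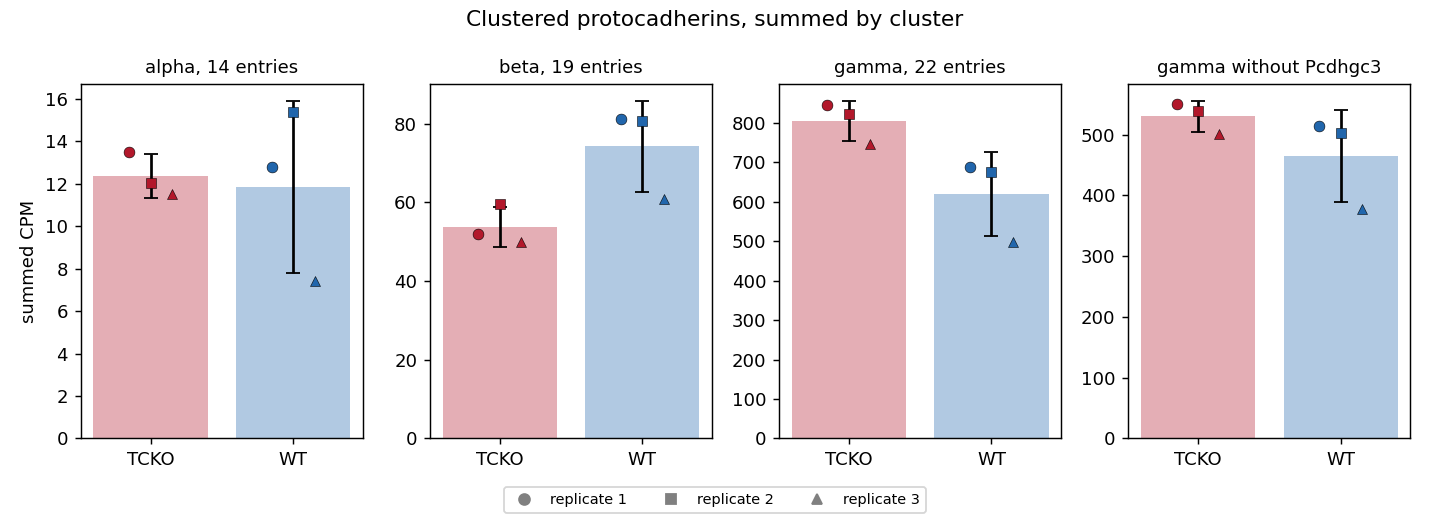
Summed CPM of the alpha, beta and gamma protocadherin entries and of the gamma entries without Pcdhgc3, with TCKO left of WT. Bars are means with the SD (n = 3) and symbols are replicates, and replicate 3 is the lowest library of each genotype in all 4 sums.

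The 24 members that were not tested had few reads. They were 11 alpha and 5 beta entries, Dsp, Dsc2 and 6 classical cadherins. VE-cadherin Cdh5, the adhesion receptor of endothelium, had 13 reads in TCKO and 19 in WT. M-cadherin Cdh15, of muscle precursors, had 13 reads in TCKO and 14 in WT, where the 4 muscle markers listed summed to 28.2 to 57.0 CPM in TCKO and 5.03 to 18.6 CPM in WT, most of it Acta1 (adjusted p = 0.0111, and 0.0635 with the replicate block). Cdh19, known from Schwann cell precursors, had 5 reads in TCKO and 26 in WT. The 4 Schwann cell or glial markers listed summed to 2.66 to 5.76 CPM in TCKO and 17.1 to 21.2 CPM in WT. Of these, S100b averaged 1.76 CPM in TCKO and 15.4 CPM in WT, and the other one tested did not pass (log2 -0.42). Cdh4, Cdh8 and Cdh22 had 37, 12 and 6 reads in TCKO and 31, 18 and 4 in WT. With no filter on low counts 1 of the 24 passed, Dsc2. E-cadherin, the desmogleins and Fat2 were not analysed here.

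The genes that work with these receptors also changed in part, in lists that were chosen with earlier results of these data known. Of 83 partner genes tested, 15 rose and 15 fell, 36.1% beside 18.3% of all genes, and 3 of the 83 (3.61%) passed with a fold above 2, beside 6.07% of all genes. Their median log2 difference was -0.02. The count fell to 14 without TCKO replicate 2 or WT replicate 1, to 16 without WT replicate 2, to 18 without TCKO replicate 1 and to 3 with replicates 1 and 2 summed. The share called by list stands beside the 18.3% of all genes. It was 57.9% for adherens junction partners, 25% for desmosome and intermediate filament genes and 37.5% for Fat, Dachsous and Hippo genes. It was 75% for repressors of cadherin genes and 21.4% for the beta-catenin list. For the WAVE complex list and the cadherin shedding list it was 11.1% each. Among 19 adherens junction partners 5 rose and 6 fell. Arvcf, a p120 relative, was 1.94-fold lower in TCKO (25.4 CPM in TCKO, 49.3 CPM in WT, adjusted p = 0.000479). The adhesive receptor phosphatases went apart, with Ptprk higher (93.0 CPM in TCKO, 39.1 CPM in WT, adjusted p = 0.00222) and Ptprm lower (46.8 CPM in TCKO, 76.7 CPM in WT, adjusted p = 0.00422). Rapgef2, an activator of the small GTPase Rap1, was lower (log2 -0.49, adjusted p = 0.00739). Afadin, listed as Mllt4, was lower too (log2 -0.50, adjusted p = 0.0289, and 0.0592 with the replicate block).

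Of 8 tested genes of desmosomes and intermediate filaments, 2 fell, the nuclear envelope genes Tmem43 (log2 -0.62, adjusted p = 0.00212) and Lmna (log2 -0.44, adjusted p = 0.0119). Nes, an intermediate filament of progenitors, averaged 97.6 CPM in TCKO and 38.0 CPM in WT and passed only with the replicate block (adjusted p = 3.8e-05, against 0.117). Of 9 WAVE complex and actin genes, Cyfip2 alone passed, with 12.3 CPM in TCKO and 5.53 CPM in WT (log2 1.15 ± 0.16 SE, adjusted p = 0.00219). Of 16 genes of the Fat, Dachsous and Hippo pathway, 4 rose and 2 fell. Fjx1, whose fly counterpart four-jointed phosphorylates Fat and Dachsous, had 25.5 CPM in TCKO and 11.6 CPM in WT (adjusted p = 0.00429). The transcription factor Tead2 (log2 0.96, adjusted p = 0.0018) and its coactivator Yap1 (log2 0.34, adjusted p = 0.0185) rose, and the kinase Lats2 fell (log2 -0.77, adjusted p = 0.00969). Sav1, a scaffold of the same pathway, passed as lower only with the block (adjusted p = 0.00812, against 0.0552).

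Of 8 repressors of cadherin genes, 2 rose and 4 fell. Snai2 (59.8 CPM in TCKO, 104 CPM in WT, adjusted p = 0.000915) and Zeb2 (112 CPM in TCKO, 188 CPM in WT, adjusted p = 0.00208) were lower, and Zeb1 (77.1 CPM in TCKO, 53.4 CPM in WT, adjusted p = 0.0181) and Tcf3 (120 CPM in TCKO, 97.2 CPM in WT, adjusted p = 0.0201) were higher. The related factors Zeb1 and Zeb2 thus moved in opposite directions. Of 9 genes for cadherin shedding and processing, Furin, which trims cadherin precursors, alone passed (log2 0.47, adjusted p = 0.00303). Of 14 genes of the beta-catenin destruction complex and its LEF/TCF partners, Bcl9 (log2 0.51, adjusted p = 0.00823) and Axin2 (log2 0.53, adjusted p = 0.0362) rose and Tcf7l1 fell (log2 -0.43, adjusted p = 0.0197). Lef1, at 2.78 CPM in TCKO and 1.28 CPM in WT, passed only with the block (adjusted p = 0.037, against 0.136).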

How the data were processed

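The deposited values are raw read counts per gene symbol for 6 libraries, which the authors made from reads on GRCm38. The submitters' processing notes name HISAT2 and the published methods name STAR, and neither names the counting program or its strand setting. The authors' means per genotype, fold changes, p-values and FDR stand in the same table and were not used. Counts were tested in R 4.3.3 with edgeR 4.0.16 (filterByExpr by genotype, TMM, robust quasi-likelihood fit, genotype as the only term), 2-sided, with Benjamini-Hochberg adjustment over 13630 genes. A standard error is the size of the log2 difference divided by the root of F. DESeq2 1.42.0, limma-voom (limma 3.58.1), DESeq2 size factors, other filters, leaving out each library and summing replicates 1 and 2 or the protocadherin clusters were alternatives. Same-numbered libraries deviated together (r = 0.181, 0.184 and 0.321 across genes for numbers 1 to 3), so a fit with the number as a block is given where it changes a call. The labels state no pairing, and libraries of different number are not compared here. Because replicate 3 differed from replicates 1 and 2 in both genotypes, these values do not show that numbers 1 and 2 pair across genotypes. CPM per kb divides by exon length in GENCODE M21, found for 94 of 95 members. A gene at 1 CPM has about 8 to 11 reads in a library. The fits were tested on simulated data. Members past both thresholds, past an adjusted p of 0.05 at 50 CPM or more, or among the 6 highest per kb were named with every library, as were the main osteoblast cadherins and their catenins, and the rest by counts or, at a threshold, by name. Members and lists were chosen with earlier results of these data known. The smallest total of a listed gene was 10 reads, so a gene outside the table has no level here.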

Additional observations from a re-analysis of the deposited data

How the results depend on the processing

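Of the 13 members called, 8 kept an adjusted p under 0.05 with each library left out (Pcdh17, Pkp2, Pcdh19, Cdh2, Pcdh7, Pcdhgc3, Fat3 and Fat4) and 5 did not (Cdh18, Ctnnd2, Jup, Pcdhgc4 and Fat1). The replicate block kept all 13 and raised the count to 21; beside the members and partner genes for which both values are given above it changed no other call of a named member or partner gene. Of the named markers, Acta1 and Spp1 lost their call with the block (adjusted p = 0.0635 and 0.135), and Col1a2 and Krt19 gained one (0.0335 and 0.00101). Leaving out libraries gave 8 to 16 members at any fold, 6 to 9 at a fold above 2, 1190 to 3313 genes in all, 571 to 1058 genes at a fold above 2, and 14 to 33 partner genes. With replicates 1 and 2 summed, 5 members passed at any fold and 5 at a fold above 2, beside 353 and 288 genes in all and 3 partner genes; fewer libraries were compared there. DESeq2 called 14 members, limma-voom 12, the fit with no filter on low counts 14 and the fit with the clusters summed 12. The log2 differences of 27 members, the 13 called among them, were followed through the alternatives. Of these, 2 changed sign, both without a call. Cdh6 ran from -0.44 without TCKO replicate 3 to 1.15 without TCKO replicate 2. Ctnnd1 ran from -0.0045 without WT replicate 3 to 0.20 without TCKO replicate 3. Members outside the 27, all without a call, also changed sign with a library left out, such as Cdh3 (-0.47 to 0.14), Pcdh1 (-0.32 to 0.71) and Pcdh10 (-0.12 to 0.83). DESeq2 size factors changed no direction or call among the 27. Depth limits the members under about 1 CPM, and Pcdh17 rests on 8 WT reads.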
